A study of Mus musculus with 2 samples.

Results

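The genes described here encode the core of the BCL2 family, which sets whether a cell's mitochondria release the factors that start apoptosis. They were taken from the count tables by gene symbol through the mm10 annotation: the anti-apoptotic genes Bcl2, Bcl2l1 and Mcl1, the pore-forming genes Bax and Bak1, and the BH3-only genes Bid, Bad, Bcl2l11, Bbc3 and Pmaip1. All 10 were found among the 52550 genes of the tables. Messenger RNA had been sequenced from RAW264.7 cells, a macrophage-like line that came from a mouse tumour induced by Abelson leukaemia virus. The cells were left untreated and were grown in 3D culture or in 2D culture, with 1 library for each culture method. The sources used here do not say how the 3D culture was set up. The comparison addresses how the transcriptome of the line differs between the culture methods.

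In healthy cells the anti-apoptotic proteins BCL2, BCL-XL (the product of Bcl2l1) and MCL1 hold the pore formers BAX and BAK in check. BH3-only proteins report stress: they bind the anti-apoptotic proteins through a short helix, the BH3 domain, or activate BAX and BAK directly, after which the outer mitochondrial membrane is breached and cytochrome c activates caspases. MCL1 is a protein with a short half-life, and BIM, the product of Bcl2l11, is known for the death of macrophages that lose their growth factor.

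The BH3 domain is the feature that every one of these genes encodes, so its coding sequence is shown for 9 of them. Each stretch covers 15 codons of the coding transcript in build mm10, from the GENCODE M21 transcripts, and lies within an exon. The capitals mark the 6 codons of the pattern searched in the translated coding sequence, a leucine, any 3 residues, a glycine, alanine or serine, and an aspartate. This pattern occurred once in the coding sequence of each of the 9 genes shown and at 2 places in that of Pmaip1, and in 34.0% of 21526 coding genes, so that it alone does not define the family.
Bcl2 (chr1:106712569-106712613, minus strand): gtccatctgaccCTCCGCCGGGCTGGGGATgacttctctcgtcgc
Bcl2l1 (chr2:152829691-152829735, minus strand): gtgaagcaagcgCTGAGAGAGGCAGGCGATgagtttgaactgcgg
Mcl1 (chr3:95659424-95659468, plus strand): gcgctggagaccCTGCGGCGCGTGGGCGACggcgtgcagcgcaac
Bax (chr7:45465991-45466035, minus strand): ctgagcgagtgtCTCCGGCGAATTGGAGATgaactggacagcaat
Bak1 (chr17:27022525-27022569, minus strand): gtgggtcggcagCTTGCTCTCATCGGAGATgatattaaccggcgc
Bid (chr6:120897283-120897327, minus strand): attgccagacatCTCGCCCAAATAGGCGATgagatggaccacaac
Bad (chr19:6950780-6950824, plus strand): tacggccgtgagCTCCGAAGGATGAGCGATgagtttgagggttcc
Bcl2l11 (chr2:128147138-128147182, plus strand): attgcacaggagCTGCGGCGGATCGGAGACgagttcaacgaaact
Bbc3 (chr7:16313761-16313805, plus strand): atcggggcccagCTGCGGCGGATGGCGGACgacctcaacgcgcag
The GC content of these stretches ran from 51.1% in Bid to 77.8% in Mcl1.

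The 3D library held 16652503 counts and the 2D library 14371084. An absent gene, with 0 counts, allows a level of up to 0.18 counts per 1000000 total counts in 3D culture and 0.209 in 2D culture (3 counts of the total). The mitochondrial genome took 1.56% of the counts in 3D culture and 3.12% in 2D culture, and the 20 most abundant genes took 15.1% and 9.54%. The 10 macrophage markers were all measured, with a summed level of 9597 TMM-scaled counts per 1000000 (CPM) in 3D culture and 3306 in 2D culture. Most of the sum came from Lyz2, Cd68, Csf1r and Cd14, while Ptprc, at 49.6 CPM in 3D culture and 134.8 in 2D culture, and Itgam, at a ratio of 0.731, went the other way. Marker lists of T cells, neutrophils, fibroblasts, epithelium and erythroid cells summed to between 0.222 and 7.09 CPM in either library, and the T cell sum came from Lck alone, apart from 1 count of Cd4 in 2D culture. In 3D culture 5 of 6 T cell, 3 of 5 neutrophil, 3 of 6 fibroblast, 0 of 5 epithelial and 3 of 5 erythroid markers were at 0 counts, against 4, 3, 3, 2 and 4 in 2D culture; Cd3e, Ly6g and Col3a1 were at 0 in both. Endothelial markers summed to 55.7 CPM in 3D culture and 22.2 in 2D culture, most of it Vwf, and the hepatocyte list to 23.0 and 0.565 CPM, most of it Alb; Cdh5 had 5 and 2 counts. The part of these markers and of the mitochondrial share in the results below was not tested.

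Bcl2l1, Bak1 and Bad were at least 2-fold higher in 3D culture than in 2D culture, and Bcl2 and Pmaip1 were at least 2-fold lower. Mcl1, Bax, Bid, Bcl2l11 and Bbc3 lay between. Thus 3 of 10 genes were higher by this rule, beside 18.7% of all 11673 measured genes, and 2 of 10 were at least 2-fold lower, beside 20.8%. For 10 genes, neither count stands apart from the share over the whole transcriptome. The median log2 ratio was 0.11 over the 10 genes and 0.05 over all measured genes. All 10 passed the filter of a mean of 1 CPM, and each was above that level in both libraries. With 1 library per culture method no difference has a replicate check, no p-value was computed, and the 95% intervals given with ratios cover counting error only. Fewer cells with a transcript and less of it per cell cannot be told apart in bulk RNA.

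**Figure D1:**
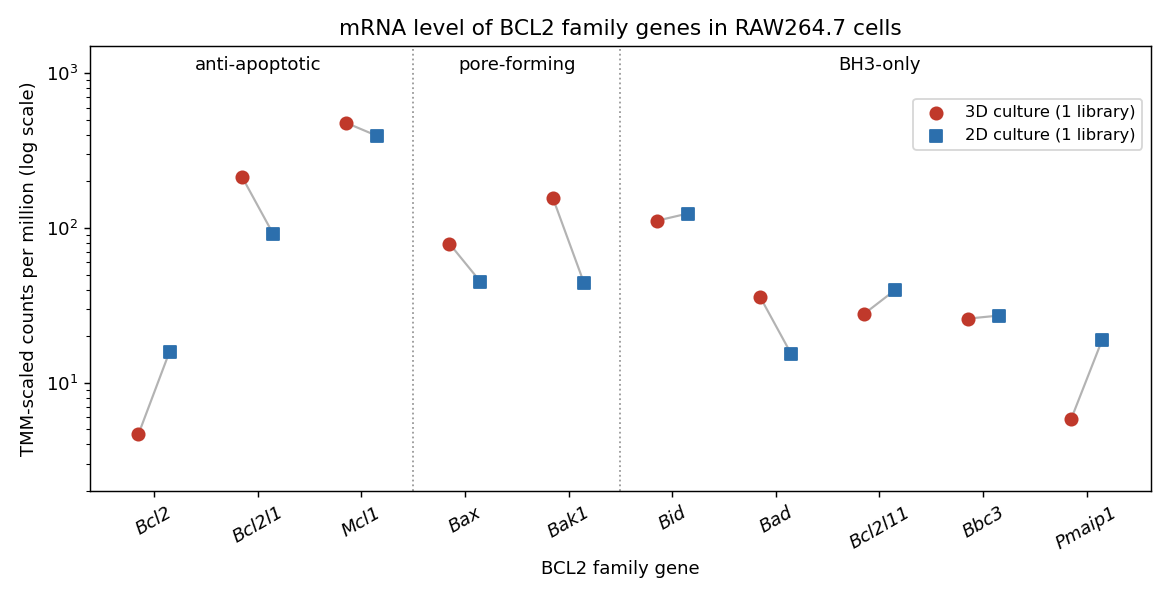
TMM-scaled counts per 1000000 (log axis) of the 10 genes by role, with the 3D library as circles left of the 2D library as squares; each point is 1 library. Bcl2 stood at 4.66 CPM in 3D culture against 15.9 in 2D culture and Pmaip1 at 5.84 against 19.0, while Bak1 stood at 155 against 43.9.

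Among the anti-apoptotic genes, Bcl2 was lower and Bcl2l1 higher in 3D culture. Bcl2 (ENSMUSG00000057329, chr1:106538178-106714274), the founding member of the family, had 63 counts or 4.66 CPM in 3D culture, against 281 counts or 15.9 CPM in 2D culture. It was 3.41-fold lower in 3D culture (95% interval 2.59 to 4.56). Bcl2l1 (ENSMUSG00000007659, chr2:152780668-152831728) had 2884 counts or 213 CPM in 3D culture, against 1616 counts or 91.4 CPM in 2D culture, a 2.33-fold higher level (2.19 to 2.48). The tables count whole genes, so the long BCL-XL transcript and the short pro-apoptotic splice form of Bcl2l1 are not separated. Mcl1 (ENSMUSG00000038612, chr3:95658788-95663176) had 6479 counts or 479 CPM in 3D culture and 6970 counts or 394 CPM in 2D culture. Its ratio was 1.21 (1.17 to 1.26) under TMM scaling, but its log2 ratio of 0.28 became -0.32 under total-count scaling and -0.31 under scaling to 23 reference genes, so the direction for Mcl1 depends on the scaling.

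Both genes for the pore formers had a ratio above 1 in 3D culture, and Bak1 had the highest ratio of the 10 genes. BAK sits in the outer mitochondrial membrane at rest, and BAX is mostly cytosolic until it is activated. Bak1 (ENSMUSG00000057789, chr17:27019810-27029009) had 2100 counts or 155 CPM in 3D culture, against 776 counts or 43.9 CPM in 2D culture, a 3.54-fold difference (3.26 to 3.85) that ranked at percentile 96.6 of all measured genes. Bax (ENSMUSG00000003873, chr7:45461697-45466898) had 1072 counts or 79.2 CPM in 3D culture and 794 counts or 44.9 CPM in 2D culture. Its ratio of 1.76 (1.61 to 1.94) stayed under the 2-fold mark. The ratios of both genes lay above 1 under total counts too, with log2 values of 1.22 for Bak1 and 0.22 for Bax. After the adjustment for GC content, exon length and expression, Bax turned to -0.63 and Bak1 stood at 0.63.

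The BH3-only genes went in different directions. Bad (ENSMUSG00000024959, chr19:6941861-6951899), whose product is held inactive by phosphorylation and 14-3-3 proteins, had 482 counts or 35.6 CPM in 3D culture and 270 counts or 15.3 CPM in 2D culture. It was 2.33-fold higher in 3D culture (2.01 to 2.72), so that its lower bound lay at the 2-fold mark. Pmaip1 (ENSMUSG00000024521, chr18:66458533-66465565) encodes NOXA, which binds MCL1 and promotes its degradation. It had 79 counts or 5.84 CPM in 3D culture, against 336 counts or 19.0 CPM in 2D culture, a 3.25-fold lower level (2.54 to 4.21). The other BH3-only genes lay within 2-fold.

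Bid (ENSMUSG00000004446, chr6:120891930-120916853), which caspase-8 cleaves to link death receptors with mitochondria, had 1506 counts or 111 CPM in 3D culture and 2191 counts or 124 CPM in 2D culture, a ratio of 0.898 (0.841 to 0.96). Bcl2l11 (ENSMUSG00000027381, chr2:128126038-128162547) had 376 counts or 27.8 CPM in 3D culture and 702 counts or 39.7 CPM in 2D culture. It was 1.43-fold lower (1.26 to 1.62) under TMM scaling and past 2-fold under total counts, at a log2 ratio of -1.11. Bbc3 (ENSMUSG00000002083, chr7:16308393-16318205) encodes PUMA, a target of p53. It had 351 counts or 25.9 CPM in 3D culture and 480 counts or 27.1 CPM in 2D culture, and its ratio of 0.956 (0.83 to 1.1) was the only one of the 10 whose counting interval included 1.

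Calls for the higher genes depended on how the libraries were scaled. Scaling to total counts lowered every log2 ratio by 0.6 and left Bak1, at 1.22, as the only gene at least 2-fold higher, beside 5.77% of measured genes; Bcl2l1 and Bad both stood at 0.62. The genes at least 2-fold lower were then Bcl2 at -2.37, Pmaip1 at -2.30 and Bcl2l11 at -1.11, beside 35.9% of measured genes. Scaling to the reference genes gave the same counts, 1 higher and 3 lower, beside 5.92% and 35.7%.

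**Figure D2:**
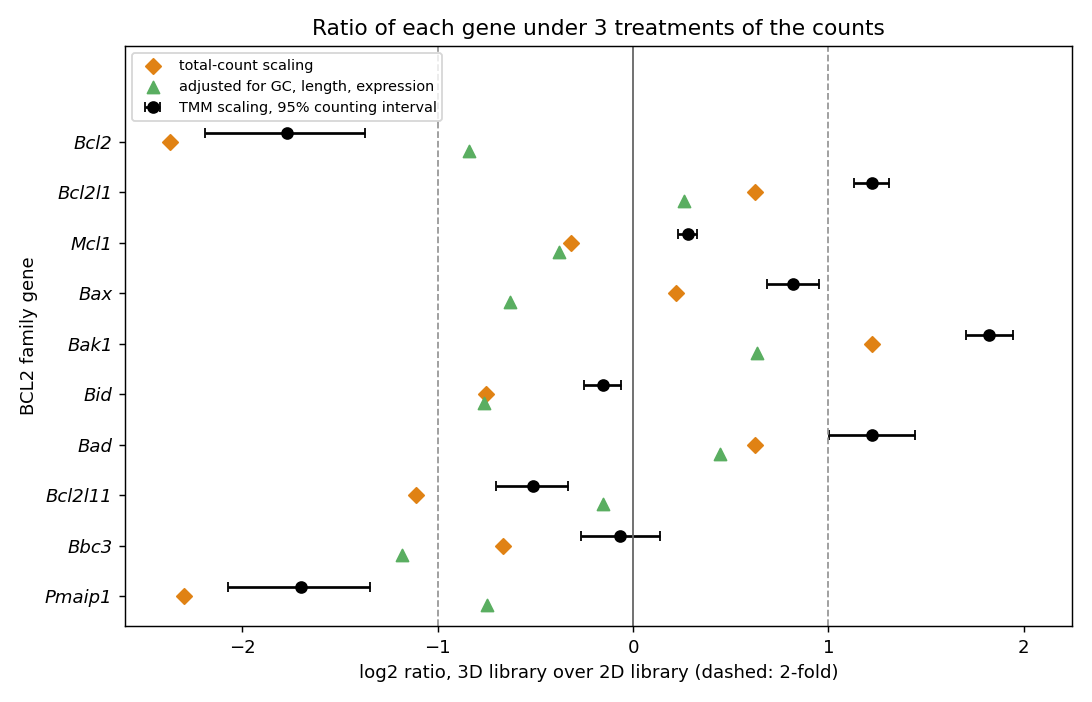
The log2 ratio of the 3D library over the 2D library for each gene under TMM scaling (circles with 95% counting intervals), total-count scaling (diamonds) and after adjustment for GC content, exon length and expression (triangles). Dashed lines mark 2-fold; Bak1 is the only gene right of the upper line under both scalings, and Bbc3, at -1.18, is the only gene left of the lower line after the adjustment.

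Ratios between members need no scaling, since the library factor cancels. Over all 45 pairs, the count ratio of a pair differed at least 2-fold between the libraries for 28 pairs, and the interval excluded 1 for 42. The ratio of Bcl2l1 to Bcl2 counts was 7.96 times as high in 3D culture as in 2D culture (95% exact conditional interval 5.99 to 10.7), which is the largest shift among the anti-apoptotic genes. Against Mcl1, Bcl2l1 was 1.92 times as high (1.79 to 2.06) and Bcl2 4.15 times as low (3.14 to 5.55). The widest shifts of the 45 pairs were those of Bak1 against Bcl2, 12.1 times as high in 3D culture (9.03 to 16.3), and of Bak1 against Pmaip1, 11.5 times (8.85 to 15.1). Bak1 gained 2.00 times against Bax (1.77 to 2.27). The ratio of Bax to Bcl2, often used as a summary of the balance, was 6.02 times as high in 3D culture (4.49 to 8.16), but 1.16 times after the adjustment for GC content, exon length and expression. Pairs that moved together also appeared: Bcl2l1 against Bad had an interval of 0.848 to 1.18, and Bcl2 against Pmaip1 gave 0.954 (0.648 to 1.4).

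Levels of different genes were compared per kb of exon, as shares of the summed level of a role. Mcl1 made up most of the anti-apoptotic level, with 74.9% in 3D culture and 84.2% in 2D culture. Bcl2l1 made up 24.8% in 3D culture and 14.5% in 2D culture, and Bcl2 0.272% and 1.27%. With the length of the longest transcript the share of Bcl2l1 was 37.1% in 3D culture and 23.2% in 2D culture, and that of Mcl1 62.6% and 75.3%. Bcl2 thus supplied little of the summed mRNA of these 3 anti-apoptotic genes in either library. Other anti-apoptotic relatives, such as Bcl2l2, were not part of the sum. Of the pore-forming level, Bak1 held 56.2% in 3D culture and 39.0% in 2D culture, and Bax the rest, when merged exon lengths were used; with the longest transcript Bak1 held 47.4% and 31.1%, below Bax in both. Bid was the most abundant BH3-only gene per kb, with 49.7% and 53.2%. The share of Bad was 22.1% in 3D culture and 9.11% in 2D culture, that of Pmaip1 3.39% and 10.6%, that of Bcl2l11 5.49% and 7.54%, and that of Bbc3 19.4% and 19.5%.

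**Figure D3:**
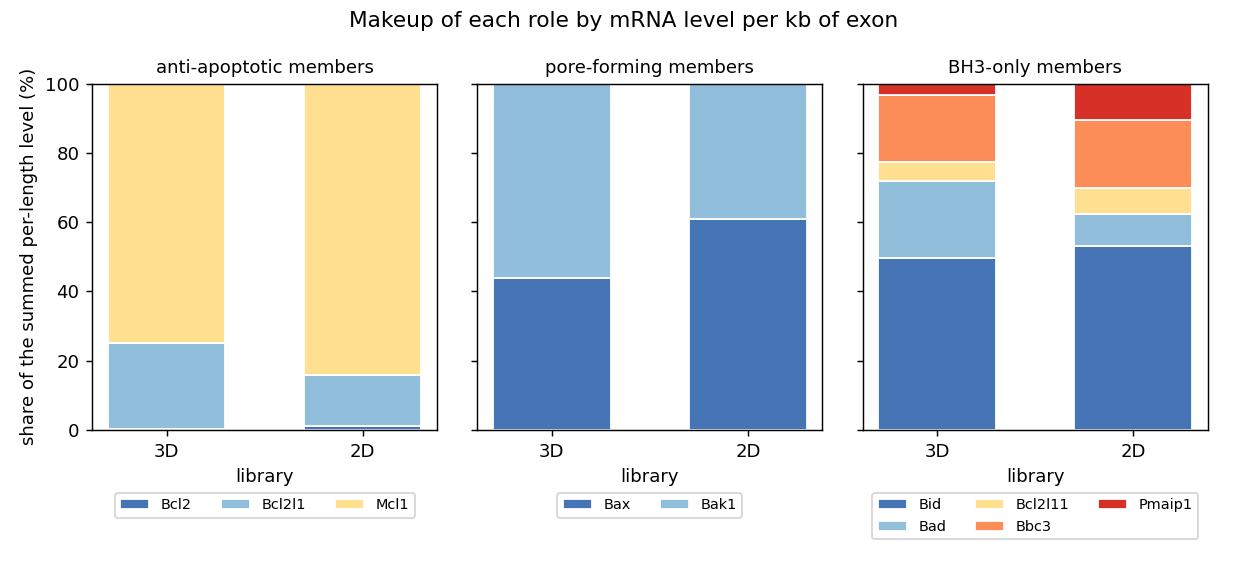
Share (%) of each gene in the summed level per kb of merged exons of its role, with the 3D library left of the 2D library in each panel; 1 library per bar. The Bcl2l1 share is 24.8% in 3D culture and 14.5% in 2D culture, and the Bak1 share is 56.2% and 39.0% with merged exon lengths, against 47.4% and 31.1% with the longest transcript.

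Set against the anti-apoptotic genes, the pore-forming genes took a larger part in 3D culture and the BH3-only genes a smaller one. Per kb, the summed pore-forming level was 0.613 of the anti-apoptotic level in 3D culture and 0.341 in 2D culture. The summed BH3-only level was 0.337 of it in 3D culture and 0.479 in 2D culture. In counts, the first ratio was 1.90 times as high in 3D culture (1.78 to 2.03) and the second 0.661 times (0.624 to 0.699). These sums were not adjusted for GC content, exon length and expression. The median adjusted log2 ratio was -0.38 over the anti-apoptotic genes, 0.003 over the pore-forming genes and -0.75 over the BH3-only genes. The sums were formed after the values of single genes were known, and mRNA levels do not give protein levels.

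The higher and the lower genes differed in the base composition of their transcripts. Bcl2l1, Bak1 and Bad, the higher genes, had a GC content of 55.9% to 57.1% in their longest transcript, and Pmaip1 and Bcl2, the lower genes, of 42.1% and 46.3%. When measured protein-coding genes were cut into 10 GC bins, their median log2 ratio was -1.28 in the lowest bin and 0.96 in the highest. Set against the median of its own GC bin, Bak1 lay 1.02 log2 units above, Bcl2l1 and Bad 0.42 above and Mcl1 0.30 above. Bcl2 lay 1.47 units below, Bbc3 1.03 below and Pmaip1 0.87 below its bin, and the remaining 3 genes lay 0.14 to 0.50 below. Bbc3 has the highest GC content of the 10 genes, at 65.2%, in a bin whose median log2 ratio was 0.96, while its own was -0.07.

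**Figure D4:**
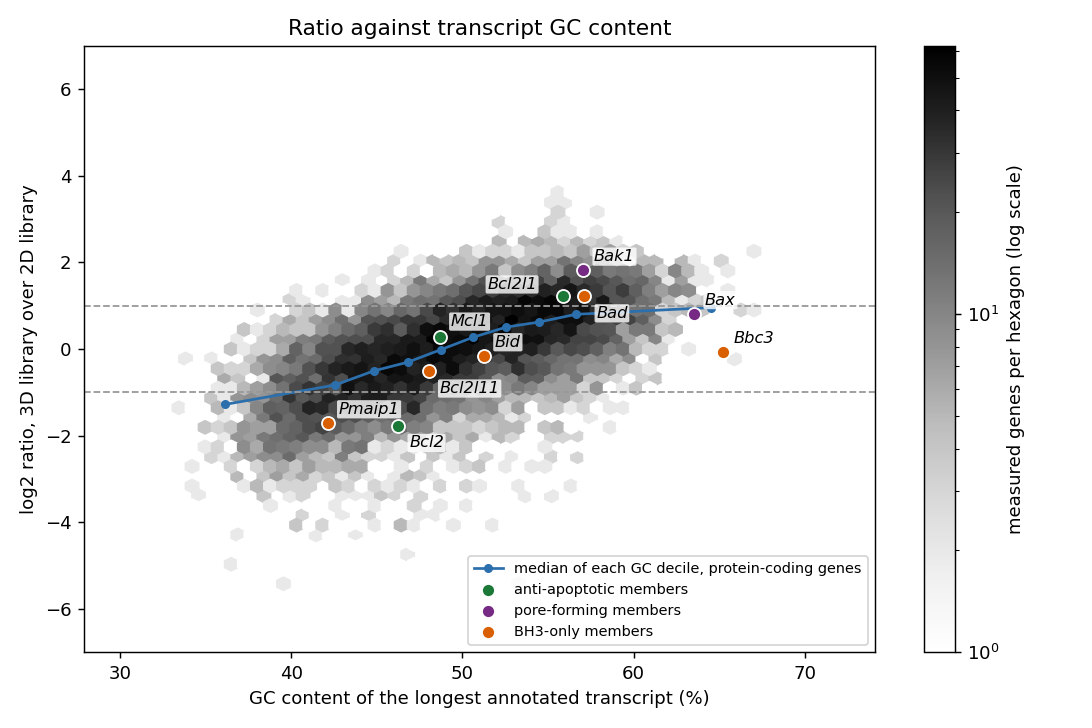
The log2 ratio of the 3D library over the 2D library against the GC content (%) of the longest annotated transcript, for all measured genes (grey hexagons, darker for more genes) and the 10 BCL2 family genes (coloured by role); the line joins the medians of the GC bins. Bak1 lies above the line, and Bcl2, Pmaip1 and Bbc3 lie below it.

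After all log2 ratios had been adjusted for the GC content, the exon length and the mean expression of each gene, none of the 3 higher genes stayed past 2-fold. The adjusted log2 ratio was 0.63 for Bak1, 0.45 for Bad and 0.26 for Bcl2l1. It was -0.84 for Bcl2 and -0.75 for Pmaip1, so that both kept their direction below 2-fold. Bbc3 passed the mark at -1.18, beside 9.29% of the genes fitted, and the count of 0 higher genes stood beside 11.1%. Bax, at -0.63, and Mcl1, at -0.38, lay below 0 after adjustment and above it before. The adjusted values of Bid and Bcl2l11 were -0.76 and -0.15. After adjustment, and again with no like count over all measured genes, 16 of the 45 pairs differed at least 2-fold. They included Bcl2l1 against Bcl2, where the adjusted ratio of Bcl2 to Bcl2l1 was 0.466. Bak1 against Bax was another, where the adjusted ratio of Bax to Bak1 was 0.416. Of the 16, Bax against Bad and Bcl2l11 against Bbc3 passed the mark only after adjustment. Bax against Bad went from 0.756 to 0.475, and Bcl2l11 against Bbc3 turned from 0.733 to 2.04. Pairs that lost the 2-fold mark included Bax against Bcl2, at 1.16 after adjustment, and Bcl2 against Mcl1, 1.37 times as low. Bak1 against Bcl2 stayed past it, at 2.78 times. The adjustment removes biological and technical differences alike where they run along these properties, and the cause of the trend cannot be told apart with 1 library per culture method.

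The 3′ untranslated regions of the genes differed in AU-rich sequence. The pentamer ATTTA, the core of AU-rich elements that shorten the life of many mRNAs, was searched on the transcript strand only, with overlapping matches counted. Bcl2 held 15 in 5086 bases of 3′ untranslated region, Mcl1 8 in 2353, Bcl2l11 6 in 4218 and Pmaip1 4 in 2187. Bcl2l1 held 1 in 1473 bases, and Bax, Bak1, Bid, Bad and Bbc3 held 0. Of 10387 measured genes with such a region, 66.1% held at least 1. The median log2 ratio was -0.20 over the 6867 genes with the pentamer and 0.60 over the 3520 without it. After adjustment the medians were 0.01 and 0.15, and the median GC content was 47.7% and 53.6%, so the pentamer and the base composition run together. The densest 30 bases of the Bcl2, Mcl1 and Bcl2l11 regions are shown as the sites with the most matches, with the pentamers in capitals.
Bcl2 (chr1:106543003-106543032, minus strand): tATTTAggaaaaaaaagATTTATTTATTTA
Mcl1 (chr3:95662590-95662619, plus strand): ATTTAtccttgatcatagtttgcttATTTA
Bcl2l11 (chr2:128161345-128161374, plus strand): gatgttgtatATTTAttttccgcttATTTA
The genes at least 2-fold lower, Bcl2 and Pmaip1, held 15 and 4 pentamers, and the higher genes Bcl2l1, Bak1 and Bad held 1, 0 and 0. Mcl1, with 8, had a ratio of 1.21. Per kb of the region Mcl1 held the most, 3.40, against 2.95 in Bcl2 and 1.83 in Pmaip1. Bcl2l11, with 6, had a ratio of 0.70. Bax, Bid and Bbc3, with 0, had ratios of 1.76, 0.898 and 0.956. The part of these sites in the ratios was not tested.

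Some members share exon bases with a gene on the other strand. The library kit marks the strand, but which strand option was used in counting is not stated in the labels. Bad shares 524 bases, 20.5% of its exons, with Gpr137, which had 972 counts in 3D culture and 433 in 2D culture and was 2.93-fold higher. Bak1 shares 437 bases, 18.2% of its exons, with Ggnbp1, which had 19 counts in 3D culture and 91 in 2D culture. Bid shares 628 bases with Bcl2l13, which had 793 counts in 3D culture and 876 in 2D culture. Bax shares 192 bases, 12.2% of its exons, with Gm45808 on the same strand, and Bcl2 shares 558 bases with D630008O14Rik on the other strand. Both of these partners had 0 counts in both libraries. Reads in shared bases may be left uncounted for both genes, so a low count of a partner does not show that a member lost no reads. The counts of Bad, Bid, Bak1, Bax and Bcl2 are uncertain to that extent.

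Of 17 further relatives of the family 9 were measured, with a median log2 ratio of 0.10. Of these, 0 were at least 2-fold higher, beside 18.7% of all measured genes, and 2 lower, beside 20.8%. Bcl2l15 had 65 counts in 3D culture and 705 in 2D culture, 8.30-fold lower, with an adjusted log2 ratio of -2.25. Bcl2l2, which encodes the anti-apoptotic BCL-W, had 161 counts in 3D culture and 539 in 2D culture, 2.56-fold lower, with an adjusted log2 ratio of -1.56. The anti-apoptotic A1 genes, near-identical copies between which reads cannot be placed with certainty, gave 1 count in 3D culture and 0 in 2D culture for both Bcl2a1a and Bcl2a1b, and 23 and 22 for Bcl2a1d.

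**Figure D5:**
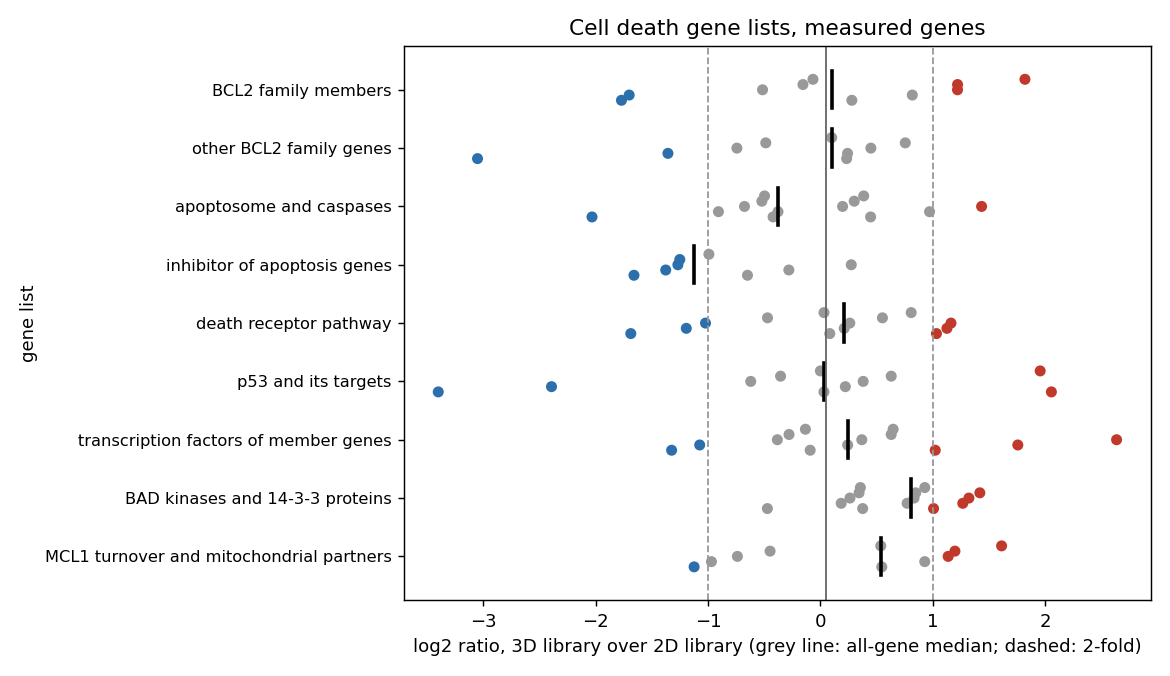
The log2 ratio of the 3D library over the 2D library for every measured gene of the BCL2 family members and of 8 related lists; red points are at least 2-fold higher, blue at least 2-fold lower, black bars are list medians and the grey line is the all-gene median of 0.05. The inhibitor of apoptosis genes have the lowest median, -1.12, and the BAD kinases and 14-3-3 proteins the highest, 0.80. After adjustment for GC content, exon length and expression, these medians were -0.098 and 0.014, no longer the lowest and the highest.

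Downstream of the mitochondria, most caspase genes differed less than 2-fold. Of 13 genes of the apoptosome and caspase list 11 lay within 2-fold, with a list median of -0.38. The mitochondrial nuclease gene Endog was 2.71-fold higher in 3D culture, with 263 counts against 127 in 2D culture. Dffb, which encodes the caspase-activated DNase, was 4.09-fold lower, with 20 counts in 3D culture and 107 in 2D culture. Adjusted log2 ratios were 0.26 for Endog and -1.84 for Dffb. Some of the inhibitor of apoptosis genes encode proteins that block caspases or mark them for degradation. In this list 4 of 8 measured genes were at least 2-fold lower, beside 20.8% of all measured genes, and 0 higher. Under total counts 6 of the 8 were lower, beside 35.9%. Xiap had 686 counts in 3D culture and 2160 in 2D culture, 2.41-fold lower, Birc2 was 2.60-fold lower, Birc6 2.38-fold and Naip6, which has close paralogs, 3.16-fold. After adjustment 0 of the 8 passed 2-fold in either direction, and Xiap, with a GC content of 36.8%, stood at 0.15.

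In the death receptor pathway, which reaches the family through Bid, 3 of 13 measured genes passed 2-fold upward, beside 18.7% of all measured genes, and 3 downward, beside 20.8%. Cflar, which encodes the caspase-8 inhibitor c-FLIP, had 584 counts in 3D culture and 2459 in 2D culture, 3.22-fold lower, and stayed at the 2-fold mark after adjustment. The deubiquitinase gene Cyld was 2.29-fold lower. The TNF receptor gene Tnfrsf1a was 2.05-fold higher, with 1998 counts in 3D culture and 1275 in 2D culture, and its adaptor gene Tradd 2.24-fold. The adjusted log2 ratios were -0.20 for Cyld, -0.08 for Tnfrsf1a and 0.31 for Tradd. The remaining 2 genes past 2-fold, named after their values were seen, were the adaptor gene Fadd, 2.19-fold higher, and Pidd1, 2.03-fold lower. Both kept their calls after adjustment, Pidd1 at a log2 ratio of -1.38. Cradd, also named after its values were seen, passed 2-fold upward only after adjustment, its log2 ratio going from 0.26 to 1.26. The adjusted list held 2 higher genes, Fadd and Cradd, and 2 lower genes, Cflar and Pidd1. Under total counts, and also under the reference genes, the list held 0 higher and 4 lower genes.

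Genes for p53, which drives transcription of Bbc3, Pmaip1 and Bax, and of its targets were split. Trp53 had 2444 counts in 3D culture and 2062 in 2D culture, a ratio of 1.55 (1.46 to 1.64). Of 11 measured genes 2 were higher, beside 18.7% of all measured genes, and 2 lower, beside 20.8%. The cell cycle inhibitor gene Cdkn1a was 3.89-fold higher and Phlda3 4.16-fold, with adjusted log2 ratios of 0.77 and 1.06. Mdm4, which encodes an inhibitor of p53, had 157 counts in 3D culture and 2170 in 2D culture, 10.6-fold lower, with an adjusted log2 ratio of -2.42, and Trp53inp1 was 5.26-fold lower, with an adjusted one of -0.51. The ratios of Bbc3, Pmaip1 and Bax, 0.956, 0.307 and 1.76, were split as well.

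Of 13 measured transcription factor genes known to act on family members, 3 were higher, beside 18.7% of all measured genes, and 2 lower, beside 20.8%. Rela, which encodes the NF-kB subunit p65, was 3.38-fold higher, with 1963 counts in 3D culture and 758 in 2D culture, and Cebpb 6.23-fold, with adjusted log2 ratios of 0.58 and 1.25. Atf4, an activator of the stress response, had 1948 counts in 3D culture and 5361 in 2D culture, 2.11-fold lower, with an adjusted log2 ratio of -2.38. Its target Ddit3, which encodes CHOP, had 198 counts in 3D culture and 648 in 2D culture, 2.50-fold lower, with an adjusted log2 ratio of -1.15. ATF4 and CHOP are known to act on Pmaip1, Bbc3 and Bcl2l11.

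Genes whose products act on BAD and MCL1 were also read. Of 14 measured kinase and 14-3-3 genes, 4 passed 2-fold upward, beside 18.7% of all measured genes, and 0 downward, beside 20.8%. The 4 were Akt2 at 2.68-fold, Rps6ka1 at 2.41-fold, Pim2 at 2.50-fold and Akt1 at 2.01-fold. Past 2-fold upward were 0 of the 14 under total counts, beside 5.77%, and 0 after adjustment, beside 11.1%. Of 10 measured genes for MCL1 turnover and mitochondrial partners, 3 were higher, beside 18.7% of all measured genes, and 1 lower, beside 20.8%. Vdac1, which encodes a channel of the outer mitochondrial membrane and has processed copies in the genome, was 3.06-fold higher, with 14085 counts in 3D culture and 6012 in 2D culture. The ER protein gene Bcap31 was 2.30-fold higher and the F-box gene Btrc 2.20-fold, while Fbxw7, the F-box gene of a ligase that marks MCL1 for degradation, was 2.18-fold lower. After adjustment Btrc stood at a log2 ratio of 2.75, Bcap31 at 0.52, Vdac1 at 0.47 and Fbxw7 at -0.52. Vdac3, named after its values were seen, went from 0.55 to 1.51. The list then held 2 higher genes, beside 11.1%, and 0 lower, beside 9.29%. Under total counts 1 of the 10 was higher, beside 5.77%, and 4 were lower, beside 35.9%. Over all 8 lists together, 16 of 89 measured genes lay past 2-fold upward, beside 18.7% of all measured genes, and 15 downward, beside 20.8%, under TMM scaling. Under total counts 5 of the 89 were higher, beside 5.77%, and 30 lower, beside 35.9%. The counts over the lists together were thus near the shares over the whole transcriptome under both scalings.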

How the data were processed

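TRIzol was used for RNA of untreated RAW264.7 cells, and a TruSeq stranded mRNA kit for the libraries, per the labels' protocols. The deposited values are read counts per Ensembl gene, made by the authors with Trimmomatic, HISAT2 and HTSeq on mm10, per the submitters' processing notes; their versions, the strand option and the gene annotation were not given in the sources used here. Of 52550 identifiers, 52403 (99.7%) matched GENCODE M21. Counts were scaled with TMM factors (edgeR 4.0.16, R 4.3.3), 0.813 (3D) and 1.23 (2D). A gene counted as measured from a mean of 1 CPM upward. Ratios have exact (Clopper-Pearson) 95% intervals conditional on the summed counts, pair ratios exact conditional intervals (scipy 1.17.1). The adjustment used spline terms (natural cubic, patsy 1.0.2) with 4 degrees of freedom each. A difference of size was 2-fold. Code was tested on simulated counts. Named pathway genes are the up to 4 per list past 2-fold with the interval bound farthest from 1, and Trp53. Members, lists and alternatives (DESeq2 1.42.0 size factors, total counts, upper quartile, reference genes, filters of 0 or 5 CPM, a pseudocount of 1 CPM, 1.5-fold and 4-fold thresholds, interval bounds, thinning to 0.5 of the smaller total) were chosen with earlier results of these data known. The values count reads, which may not be independent molecules, so intervals cover counting error only. The result of a further marker list is not reported here.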

Additional observations from a re-analysis of the deposited data

How the results depend on the processing

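The counts of 3 genes at least 2-fold higher and 2 lower were the same under DESeq2 size factors, upper-quartile scaling, both other filters on low counts, the pseudocount of 1 CPM, thinned libraries and calls by interval bound; at a 1.5-fold threshold they were 4 and 2. Higher genes numbered 1 under total counts, 1 under the reference genes, 0 at a 4-fold threshold and 0 after adjustment for GC content, exon length and expression. Lower genes numbered 3 under both of those scalings, 0 at the 4-fold threshold and 1 after adjustment, which was Bbc3 at -1.18 and neither Bcl2 nor Pmaip1. No gene called under TMM scaling turned direction under any of these settings, but none of them kept its call after adjustment. Of the 45 pairs, 28 passed 2-fold in the full counts, 26 in thinned libraries and 16 after adjustment. Not all of the 16 were among the 28, and no such count is given for pairs of all measured genes. With the longest transcript in place of merged exons, Mcl1 held 62.6% of the anti-apoptotic level in 3D culture and 75.3% in 2D culture, Bak1 47.4% and 31.1% of the pore-forming level, and Bid 50.5% and 56.3% of the BH3-only level, so that Bak1 exceeded Bax in 3D culture under merged exons only. Over the pathway lists, 5 genes were higher and 30 lower under total counts, and 9 and 10 after adjustment. The cause of these shifts was not tested. No paired analysis was possible because each culture method has 1 library, and no library could be left out. Bcl2, with 63 counts in 3D culture, and Pmaip1, with 79, had the widest intervals.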

Other observations

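The gene Gm44260, annotated as a transcript to be experimentally tested, lies inside Bid on the same strand and shares no exon base with it. It had 1 count in 3D culture and 60 in 2D culture. This gene was singled out after its values were seen. The pseudogene Gm17812, on the other strand within Bid, had 0 and 10 counts. Bid itself had a ratio of 0.898.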
